A study of Mus musculus with 6 samples.

Results

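Collagen chains were followed in whole-tumor RNA from a mouse model of triple-negative breast cancer (TNBC) treated with SS (sulindac sulfide), which the body forms from the anti-inflammatory drug sulindac and which modulates γ-secretase. The chains were taken as every gene whose symbol reads Col, a number, the letter a and a number, and 32 of the 13730 genes in the deposited count table met that rule. Of these 32, 30 had enough reads to be tested, and the other two, Col2a1 and Col28a1, are given by their values alone. All 6 tumors grew from C0321, a single TNBC line that came from an Lfng-/- mouse on the FVB background, so every tumor carried the Lfng deletion in its cancer cells. In each mouse the cells were placed with Matrigel, a basement membrane extract, in the mammary fat pad of an FVB female of 6 to 10 weeks. SS mice were given 60 mg/kg by mouth every day for 14 days, and control mice received saline in the design text of the series, with 3 tumors sequenced from each group. The methods call the control a vehicle. The sample labels spell the drug "Sulindac Sulfate" where the series title has sulindac sulfide. The question asked here was how far each collagen chain differed between control and SS tumors, beyond the spread between tumors of the same group.

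Collagens are the main structural proteins of the extracellular matrix, and each is a trimer of chains wound into a triple helix, in which glycine must recur at regular steps of 3 residues. Fibrillar collagens (types I, II, III, V, XI, XXIV and XXVII) form the load-bearing cables of the stroma, type IV forms the sheet-like network of basement membranes, type VI forms beaded filaments around cells, and other types decorate fibrils, anchor basement membranes or sit in the cell membrane. In breast tumors, dense and crosslinked type I collagen is known as a hallmark of the reactive stroma, and mesenchymal tumor cells can also produce it.

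The glycine rule can be read in the genes, because every glycine codon begins with GG. In fibrillar genes much of the helix is spelled by exons of exactly 54 bases, which hold 18 codons and 6 glycine triplets. The first such exon that starts on a glycine codon is printed for the 4 fibrillar chains with the highest levels per length, to show the unbroken repeat, followed by the same kind of exon from a type IV, a type VII and a type XIV chain and by a stretch of Col8a1, which has no exon of that length. Capitals mark GGN codons in the repeat, all sequences are coding strand from 5′ to 3′ on GRCm38 (mm10), and they come from the GENCODE M21 transcripts matched to the deposited transcripts.
Col1a1 exon 8, chr11:94939904-94939957, plus strand: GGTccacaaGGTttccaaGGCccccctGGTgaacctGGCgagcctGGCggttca
Col1a2 exon 8, chr6:4515481-4515534, plus strand: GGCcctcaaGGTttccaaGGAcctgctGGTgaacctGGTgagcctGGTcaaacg
Col3a1 exon 6, chr1:45325360-45325413, plus strand: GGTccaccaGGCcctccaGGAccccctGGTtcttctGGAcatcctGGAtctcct
Col5a2 exon 6, chr1:45434892-45434945, minus strand: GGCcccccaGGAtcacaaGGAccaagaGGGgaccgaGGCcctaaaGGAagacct
Col4a1 exon 7, chr8:11245211-11245264, minus strand: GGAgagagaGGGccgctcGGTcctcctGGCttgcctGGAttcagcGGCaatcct
Col7a1 exon 38, chr9:108965158-108965211, plus strand: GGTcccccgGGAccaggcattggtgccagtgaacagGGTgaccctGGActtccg
Col14a1 exon 37, chr15:55467960-55468013, plus strand: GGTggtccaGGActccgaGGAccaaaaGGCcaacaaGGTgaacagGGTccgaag
Col8a1 exon 4, chr16:57627517-57627570, minus strand: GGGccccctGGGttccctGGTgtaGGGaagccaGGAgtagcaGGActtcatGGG
The 4 fibrillar exons, the Col4a1 exon and the Col14a1 exon each carry all 6 triplets in register. The Col7a1 exon keeps 4 and breaks off in its middle, and in the Col8a1 stretch the fourth capital codon comes after 1 codon in place of 2.

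Over whole coding sequences the chains split by the same feature. Col1a1 had an unbroken run of 338 triplets, Col1a2 one of 339 and Col3a1 one of 344, and 21 of the 51 coding exons of Col1a1 were of 54 bases. Across all genes in the annotation, 0.673% of 213509 distinct coding exons have that length. Col24a1 and Col27a1, the type XXIV and XXVII chains, had shorter longest runs of 216 and 217 triplets. The longest run of Col4a1 was 40 triplets, and its repeat was divided into 22 runs of at least 5 triplets, while Col4a2 had 24 such runs. Col7a1, the anchoring fibril chain with 118 coding exons, had 20 runs and a longest run of 75 triplets. Col8a1 had 2 coding exons, 9 runs and a longest run of 61 triplets, and Col10a1, of the same class, also had 9 runs and 61 triplets.

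**Figure D1:**
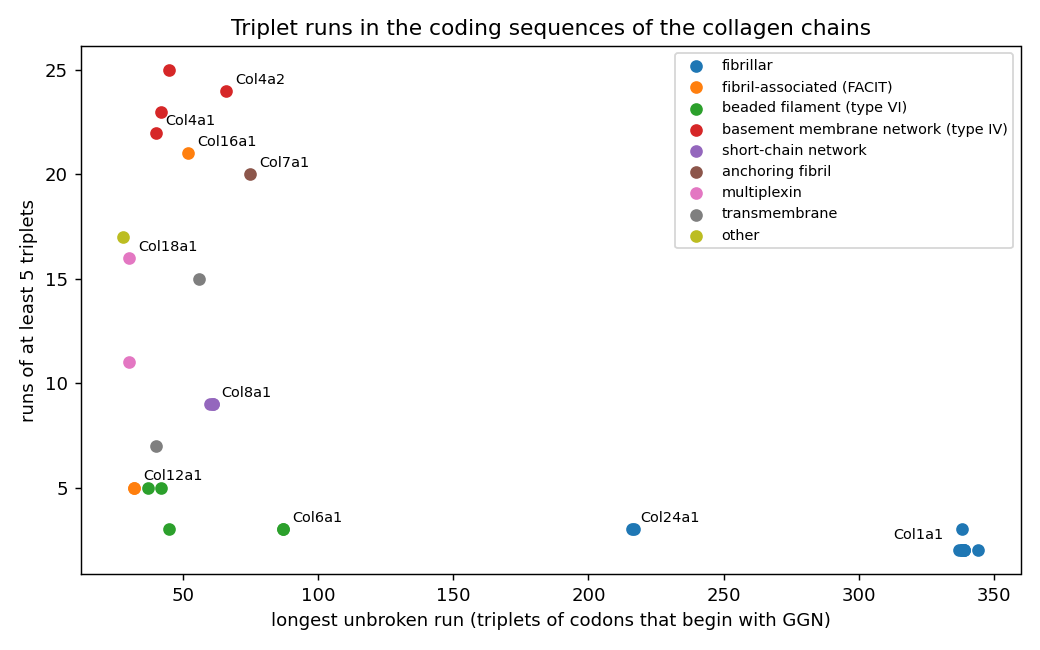
Triplet runs in the coding sequences of the collagen chains, one point per chain and colored by class. The x axis is the longest unbroken run in triplets and the y axis the number of runs of at least 5 triplets. Fibrillar chains lie at the right with 2 or 3 runs, type IV chains at the upper left with 22 to 25.

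Library depth was 8468948 to 24441553 counts per tumor, and 3 counts, the floor used here, corresponded to 0.123 to 0.354 CPM, a count scaled by the size of its library with a TMM factor. The labels number the tumors and do not say that each came from a mouse of its own, so the p-values measure the spread between these samples. In whole tumors, fewer cells of a type and less RNA per cell cannot be told apart. The labels call the tissue TNBC tumor, and the 3 receptor genes that define the class were low, with Esr1 at 4.47 to 6.40 CPM, Pgr at 0 to 3.81 CPM and Erbb2 at 17.0 to 22.3 CPM. Of the epithelial markers, Krt8 lay at 417 to 544 CPM while Epcam was at or below 2.98 CPM in every tumor. Of the marker sums, that of skeletal muscle varied most, its 6 markers adding to 5041, 9449 and 896 CPM across controls versus 286, 18187 and 9476 CPM with SS. The 10 fibroblast markers summed to 168, 159 and 130.2 CPM across controls versus 91.0, 137 and 119 CPM with SS, lowest in SS tumor 1, which also had the least muscle RNA. Levels differed within the fibroblast list. Postn lay at 52.6 to 76.4 CPM, Fap at 12.4 to 35.5 CPM and Fbln1 at 9.13 to 34.6 CPM. Dcn and Lum stayed at or below 10.5 and 1.74 CPM, and Pdgfra, Mfap5, Pi16 and Thy1 at or below 9.95 CPM. Dpt ran from 0.164 to 28.1 CPM.

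Type I collagen was one of the most abundant transcripts in these tumors. Col1a1, the α1 chain of type I, was among the 10 genes with the most counts in every tumor, and the 32 chains together took 1.53, 2.19 and 1.79% across controls versus 1.08, 2.05 and 1.72% with SS. Summed over all chains, the level was 14912, 22046 and 17909.5 CPM across controls versus 10680.4, 20652 and 17543 CPM with SS. The group means were 18289 ± 3582 CPM in control and 16292 ± 5102 CPM in SS (SD, n = 3 each), and the groups overlapped, with SS tumor 1 lowest and SS tumor 2 second only to control tumor 2. Col1a1 and Col1a2 made up 79.8 to 83.7% of the collagen counts. That share is not corrected for length.

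Per kilobase of transcript, mean levels over the 6 tumors spanned more than 4 orders of magnitude. Col1a1 averaged 1925 CPM per kilobase and Col1a2 507, followed by Col3a1 at 108, Col12a1 at 78.5 and Col5a2 at 73.8. The ranges of the last 3 overlapped, so their order was not resolved. Col8a1 (32.2), Col5a1 (25.3), Col6a2 (25.1), Col6a3 (16.1), Col6a1 (14.8), Col15a1 (14.6), Col4a1 (12.9), Col16a1 (10.98) and Col4a2 (10.2 CPM per kilobase) formed a middle group whose neighbors also overlapped. Col2a1, the cartilage fibril chain, was lowest at 0.0442 CPM per kilobase, with 0 to 11 counts per tumor and 0 counts in SS tumor 3, and Col28a1 had 0 to 21 counts.

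**Figure D2:**
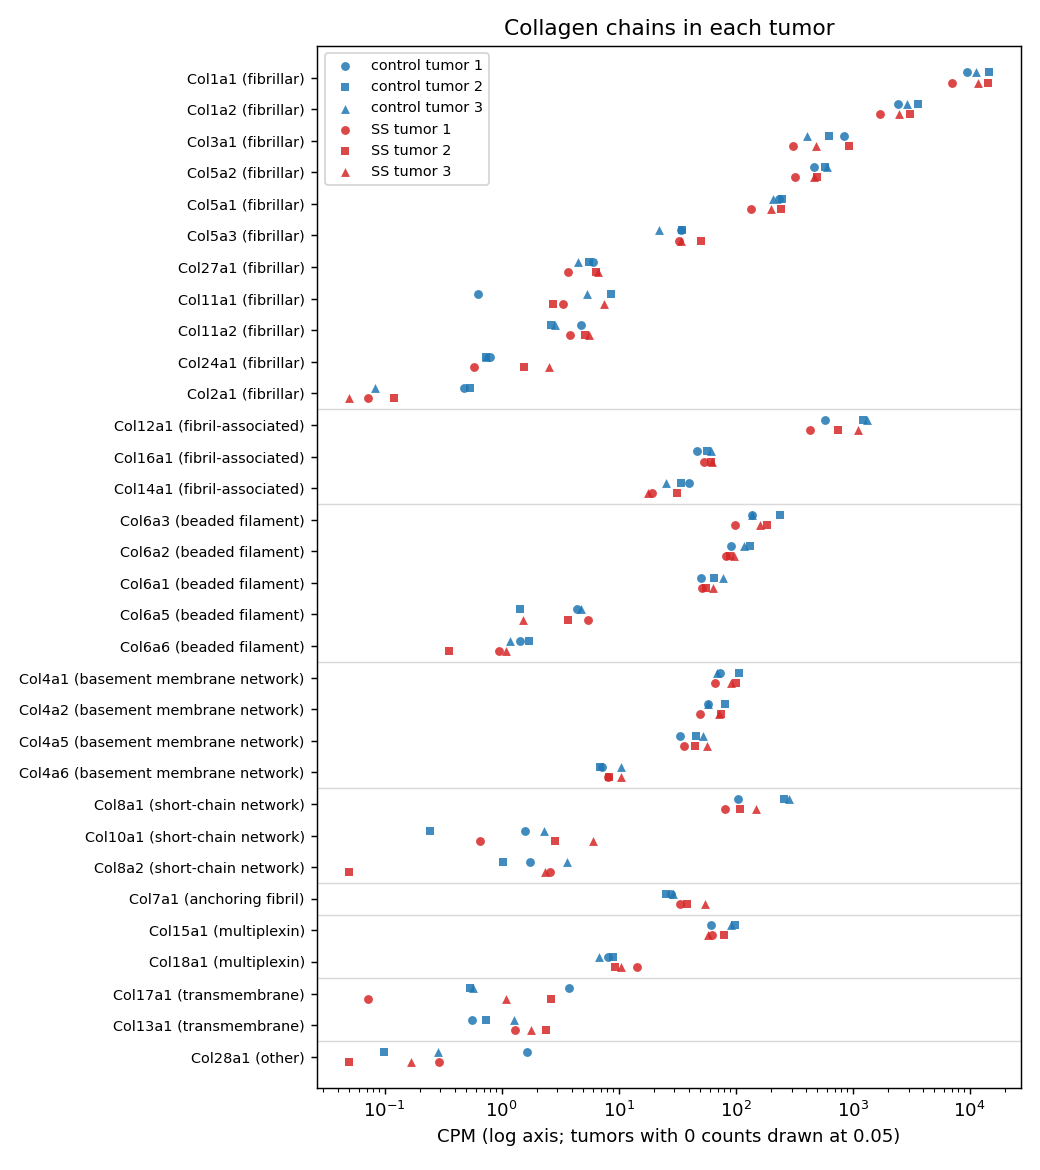
CPM of the 32 collagen chains in each tumor on a log axis, grouped by class; circles, squares and triangles are tumors 1, 2 and 3, blue is control and red is SS. Most blue and red points of a chain interleave, and Col1a1 stands at the top between 7049.6 and 14494 CPM.

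Between control and SS tumors, 1 of the 30 tested chains was higher in SS at an unadjusted p under 0.05 (edgeR quasi-likelihood test) and 1 was lower. Of all 10902 genes tested, 3.19% were higher and 3.16% lower at that threshold (6.36% in either direction), so a count of 1 among 30 was near the background in each direction. No chain passed after adjustment over all genes, the smallest adjusted p being 0.771 by edgeR, and none passed with DESeq2 either, where the smallest was 0.404. Among all genes, 0 of 10902 had an adjusted p under 0.05 by edgeR and 37 of 12638 (0.293%) by DESeq2. The lack of adjusted calls was therefore not particular to the chains. At an unadjusted p under 0.05, DESeq2 had 3 of 32 chains in either direction, against 6.1% of all genes. The log2 fold changes (SS minus control) were negative for 17 of 30 chains, or 56.7%, against 50.2% of all genes. Their median was -0.11 for the chains and -0.0013 for all genes. In 4 of the 30 chains (13.3%) the groups did not overlap, and among all genes this was so for 12.9%.

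The direction rested on single tumors. SS tumor 1 held the lowest value for 14 of the 30 chains, while each of the other tumors was lowest for 2 to 5. Without it, 12 of 30 chains were negative and the median turned to 0.15. Control tumor 2 held the highest value for 10 chains, and without it 14 of 30 were negative and the median was 0.047. With all tumors kept, the median was -0.021 after quantile normalization. In fits that left out 1 tumor at a time, 13 of the 30 chains changed sign at least once, and for 28 the log2 fold change turned or moved by over 1.5 times.

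**Figure D3:**
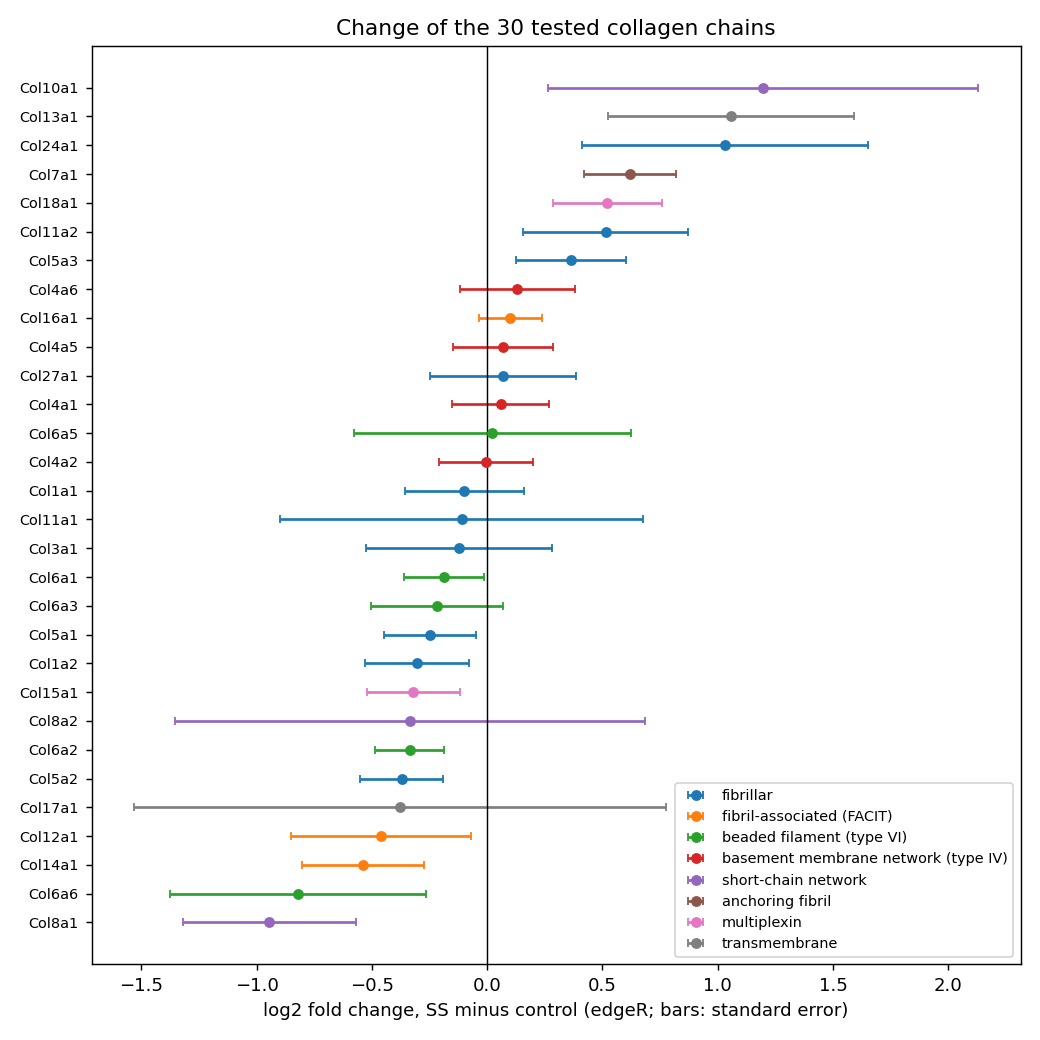
log2 fold change (SS minus control) of the 30 tested chains by edgeR, ordered by size, with bars of 1 standard error and colors for the class. The values run from -0.95 for Col8a1 to 1.197 for Col10a1, and the bars of chains near the middle cross 0.

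Among the fibrillar chains, 10 were tested, 6 had a negative log2 fold change and none reached an unadjusted p of 0.05. Col1a1 was measured at 9563, 14494 and 11360.2 CPM across controls versus 7049.6, 14214 and 11803 CPM with SS. The groups overlapped, SS tumor 1 was lowest, and the means were 11806 ± 2496 CPM in control and 11022 ± 3646 CPM in SS (SD, n = 3 each) (log2 fold change -0.10, SE 0.26, unadjusted p = 0.711, where SE is the standard error of the log2 fold change). Col1a2, the partner that enters the type I trimer once for each pair of α1 chains, read 2426, 3640.0 and 2930.1 CPM across controls versus 1718, 3061 and 2503 CPM with SS. SS tumor 1 was again lowest and control tumor 2 highest (log2 fold change -0.31, SE 0.23, unadjusted p = 0.216). Col3a1, which mixes with type I in pliable tissues, had the largest standard error among the abundant fibrillar chains, at 839.9, 626 and 407 CPM across controls versus 311, 928 and 485 CPM with SS. SS tumors held both its lowest and its highest value (log2 fold change -0.12, SE 0.40, unadjusted p = 0.773).

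Type V collagen is a minor fibrillar type that sits inside type I fibrils and limits their diameter. Its Col5a2 chain was at 466, 583 and 604 CPM across controls versus 320.3, 492 and 467 CPM with SS. All SS tumors were below control tumors 2 and 3, and SS tumors 2 and 3 were above control tumor 1 (log2 fold change -0.37, SE 0.18, unadjusted p = 0.0751). Col5a1 gave 234, 249 and 208 CPM across controls versus 136, 245 and 201 CPM with SS, with SS tumor 1 apart from the rest (log2 fold change -0.25, SE 0.20, unadjusted p = 0.252). Its log2 fold change was -0.05 without SS tumor 1 and -0.45 without SS tumor 2, where the unadjusted p was 0.0482. The third chain of the type went the other way in sign, Col5a3 being at 33.8, 35.1 and 22.0 CPM across controls versus 32.6, 50.4 and 33.9 CPM with SS. SS tumor 2 was highest and the remaining SS tumors lay among the controls (log2 fold change 0.36, SE 0.24, unadjusted p = 0.169).

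The rarer fibrillar chains were at or below 8.59 CPM. Col24a1 was at 0.790, 0.736 and 0.738 CPM across controls versus 0.580, 1.55 and 2.53 CPM with SS, and the 3 controls fell close together while SS tumors lay on both sides (log2 fold change 1.03, SE 0.62, unadjusted p = 0.137). Col11a1 ranged from 0.632 to 8.59 CPM within the control group alone, which is wider than the SS range of 2.74 to 7.51 CPM. Col11a2 and Col27a1 had log2 fold changes of 0.51 and 0.067, neither with an unadjusted p under 0.05.

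The fibril-associated chains lie on the surface of type I fibrils and link them to their surroundings. Col12a1 was the most abundant of these, at 581, 1235 and 1325 CPM across controls versus 431, 747 and 1105 CPM with SS. The groups overlapped, and the spread inside each was about as wide as the shift between them (log2 fold change -0.46, SE 0.39, unadjusted p = 0.273). Col14a1 was at 39.9, 34.1 and 25.5 CPM across controls versus 19.1, 31.7 and 17.9 CPM with SS, where 1 SS tumor stood among the controls and the other two below all of them (log2 fold change -0.54, SE 0.26, unadjusted p = 0.0777). Col16a1 was the steadiest chain of all by standard error, at 46.7 to 61.5 CPM in control and 53.6 to 62.6 CPM in SS (log2 fold change 0.10, SE 0.14, unadjusted p = 0.487).

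Type VI collagen forms filaments from one chain each of α1, α2 and α3, and 4 of its 5 tested genes had a negative log2 fold change. Col6a2 was at 91.3, 131 and 118 CPM across controls versus 83.4, 90.3 and 96.1 CPM with SS. The SS tumors were tightly grouped and control tumor 1 was the one control among them (log2 fold change -0.34, SE 0.15, unadjusted p = 0.0538). With the largest transcript only its log2 fold change was -0.56, at an edgeR unadjusted p of 0.018, with DESeq2 it was -0.34, at an unadjusted p of 0.0385, and with quantile normalization and limma it was -0.30, at an unadjusted p of 0.133. Col6a1 read 50.8, 65.7 and 77.8 CPM across controls versus 51.1, 55.5 and 64.2 CPM with SS (log2 fold change -0.19, SE 0.17, unadjusted p = 0.315), and Col6a3 read 138, 241 and 139 CPM across controls versus 99.4, 184 and 163 CPM with SS (log2 fold change -0.22, SE 0.29, unadjusted p = 0.468). Both overlapped between groups, with control tumor 2 highest for Col6a3 and control tumor 3 for Col6a1. Col6a6, a rare alternative to α3, was the only tested chain lower in every SS tumor than in every control, at 1.42, 1.72 and 1.19 CPM across controls versus 0.942, 0.357 and 1.10 CPM with SS. Its counts were small, 3 to 35 per tumor, and the edgeR estimate was correspondingly wide (log2 fold change -0.82, SE 0.56, unadjusted p = 0.179; unadjusted p = 0.0489 with quantile normalization and limma), while among all genes 6.40% were non-overlapping in that direction. A transcript with 7 coding exons and 0 triplets in runs took 49.4, 87.1 and 100% of its estimated counts across controls versus 100, 15.5 and 100% with SS. With the largest transcript only, the edgeR log2 fold change of Col6a6 was -0.68, at an unadjusted p of 0.501. Col6a5, its neighbor on chromosome 9, was at 1.42 to 4.76 CPM in control and 1.52 to 5.51 CPM in SS.

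In the type IV genes, which encode the basement membrane network, values of the groups ran together. Col4a1 was at 73.0, 106 and 68.6 CPM across controls versus 67.0, 99.7 and 91.7 CPM with SS (log2 fold change 0.059, SE 0.21, unadjusted p = 0.785). Col4a2 was at 57.8, 81.3 and 58.0 CPM across controls versus 49.6, 75.5 and 71.6 CPM with SS (log2 fold change -0.0049, SE 0.20, unadjusted p = 0.981). The 2 genes stand head to head on chromosome 8, and in the deposited coordinates their 5′ ends overlap by 23 bases on chr8:11312805-11312827, shown here on the plus strand from the RefSeq promoter window of Col4a2 because the pair is known to share a bidirectional promoter.
Col4a1 and Col4a2 shared 5′ end: agtgcgcgggcggcgtctccaag
Col4a5 and Col4a6, the chains paired in the same way on chromosome X, were at 33.6, 45.9 and 52.1 CPM across controls versus 36.5, 44.5 and 57.4 CPM with SS and at 7.19, 6.87 and 10.5 CPM across controls versus 8.12, 8.22 and 10.6 CPM with SS respectively. All 4 type IV chains had log2 fold changes between -0.0049 and 0.13.

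The short-chain network and the anchoring fibril hold the 2 chains that passed the unadjusted threshold. Col8a1 encodes a chain of type VIII collagen, a hexagonal lattice known from vessel walls and remodeling stroma, and was at 105, 257 and 287 CPM across controls versus 80.6, 108 and 149 CPM with SS. Controls 2 and 3 were far above all SS tumors, but control tumor 1 lay below 2 of them (log2 fold change -0.95, SE 0.37, unadjusted p = 0.0367). Its adjusted p was 0.771 by edgeR, and by the exact two-sided permutation test on CPM p = 0.3. Over fits that left out 1 tumor, the log2 fold change ran from -1.28 to -0.69 and the unadjusted p from 0.00090 to 0.129. It stayed under 0.05 without control tumor 1 or SS tumor 3 and not without any of the other tumors, nor with DESeq2 or quantile normalization, where all tumors were kept. Col8a2, which pairs with it, had 0 counts in SS tumor 2 and 1.03 to 3.61 CPM in the other tumors.

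Col7a1 encodes the type VII chain, which forms the fibrils that fasten epithelial basement membranes to the stroma beneath, and was at 28.1, 25.4 and 29.3 CPM across controls versus 33.4, 38.7 and 55.1 CPM with SS. All 3 SS tumors were above all 3 controls, and the means were 27.6 ± 1.97 CPM in control and 42.4 ± 11.3 CPM in SS (SD, n = 3 each). The edgeR fit gave log2 fold change 0.62, SE 0.20, unadjusted p = 0.0147 and an adjusted p of 0.771. The exact two-sided permutation test gave p = 0.1, the smallest that 3 against 3 tumors allows. Non-overlap upward was seen in 6.51% of all genes. Without 1 tumor at a time the log2 fold change stayed between 0.38 and 0.77, with unadjusted p from 0.0053 to 0.051, the latter without control tumor 2. Col10a1, the hypertrophic cartilage chain, had the largest positive log2 fold change of all chains, but at levels of 0.245 to 5.99 CPM it was not resolved (log2 fold change 1.197, SE 0.93, unadjusted p = 0.237). It was 0.33 without SS tumor 3 and 0.697 without control tumor 2, and in both fits Col13a1 and Col24a1 were larger. Without control tumor 3 it was 1.83. With quantile normalization and limma it was 1.184, below Col13a1 at 1.215.

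Type XV and type XVIII, the multiplexins, bridge basement membranes to fibrils, and the tail of the type XVIII chain gives rise to endostatin. Col18a1 was at 8.05, 8.98 and 6.80 CPM across controls versus 14.3, 9.29 and 10.6 CPM with SS. SS values were all above control values, though SS tumor 2 passed control tumor 2 by a narrow margin (log2 fold change 0.52, SE 0.24, unadjusted p = 0.0605). Col15a1 was at 61.1, 98.5 and 91.3 CPM across controls versus 63.2, 79.9 and 58.3 CPM with SS with overlap between groups (log2 fold change -0.32, SE 0.20, unadjusted p = 0.154). Vwf, an endothelial marker, was also higher in every SS tumor, at 18.5, 6.43 and 9.18 CPM across controls versus 22.5, 35.7 and 19.7 CPM with SS, whereas the 7 endothelial markers in the table summed to 119, 97.8 and 72.4 CPM across controls versus 98.5, 184 and 102 CPM with SS, and any part of vessel content in Col18a1 was not tested. Col13a1, a membrane collagen of adhesion sites, was at 0.553, 0.736 and 1.27 CPM across controls versus 1.30, 2.38 and 1.77 CPM with SS. The groups came close but did not overlap (log2 fold change 1.06, SE 0.53, unadjusted p = 0.0835), on 7 to 31 counts per tumor. Col17a1, the membrane collagen of hemidesmosomes, ranged over 0.0725 to 3.79 CPM with no order by group.

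Ratios of chains within a tumor do not depend on scaling between tumors. Of 10 ratios computed, 9 had a value in every tumor and 2 were non-overlapping between groups. The first was Col1a1 to Col1a2, whose counts stood at 3.94, 3.98 and 3.88 across controls versus 4.10, 4.64 and 4.71 with SS. The 3 controls lay close together, SS tumors 2 and 3 were well above them, and SS tumor 1 was nearer to them. Divided by transcript length, the same ratio was 3.55, 3.59 and 3.50 in control and 3.70, 4.19 and 4.25 in SS. These are RNA ratios and cannot be read as the 2 to 1 make-up of the type I trimer, because chain protein was not measured. The other was Col5a3 to Col5a1, at 0.144, 0.141 and 0.106 across controls versus 0.239, 0.206 and 0.169 with SS. For both, the exact two-sided permutation test gave p = 0.1, the smallest possible, before any adjustment for 9 ratios.

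The partners of type IV and type VI were compared in the same way. Col4a1 to Col4a2 was 1.26, 1.30 and 1.18 across controls versus 1.35, 1.32 and 1.28 with SS, and Col6a1 to Col6a2 was 0.556, 0.501 and 0.660 across controls versus 0.613, 0.615 and 0.668 with SS. Both overlapped between groups. When the most abundant transcript alone was counted, Col6a1 to Col6a2 was 0.675, 0.540 and 0.737 in control and 0.810, 0.810 and 0.878 in SS, without overlap. Col6a1 has 1 transcript, so this ratio differs only by the Col6a2 transcript left out, whose share is given below. It is not a separate observation. Col8a1 to Col8a2 had no value in SS tumor 2, where Col8a2 was at 0.

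**Figure D4:**
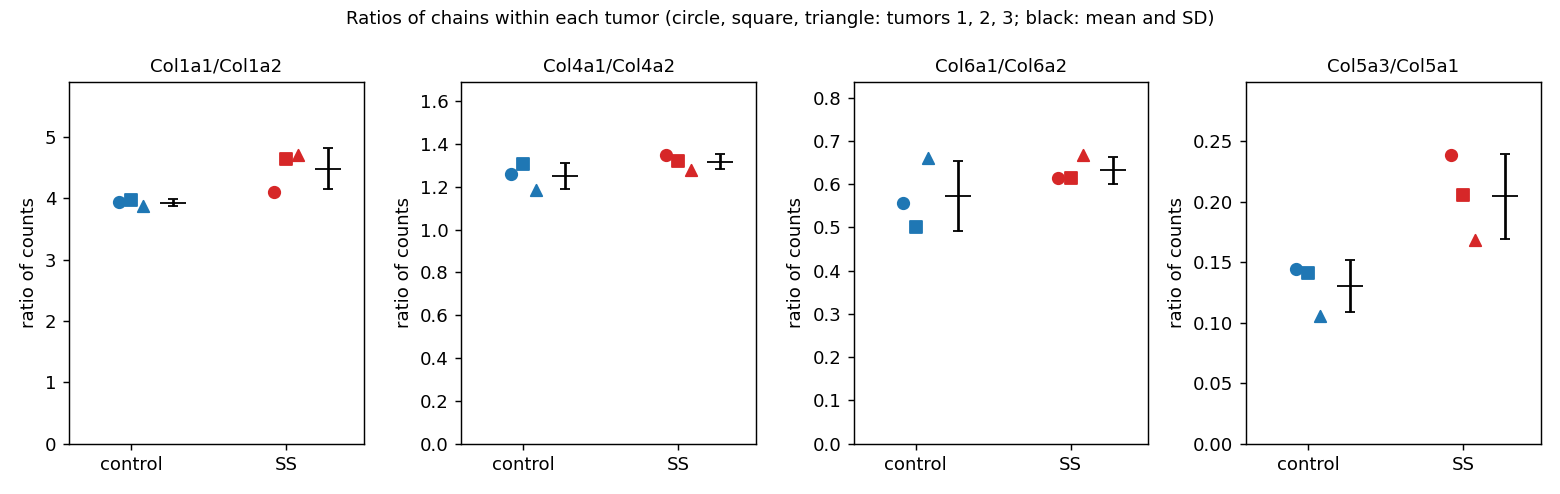
Ratio of counts of 2 collagen chains in each tumor for 4 pairs, in blue for control and red for SS, with group means and SD in black and y axes from 0. Col1a1 to Col1a2 lies between 3.88 and 3.98 in control and between 4.10 and 4.71 in SS, and the middle pairs overlap.

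The transcripts of a gene were also compared, as the share of the gene's estimated counts given to each. More than 1 transcript was listed for 10 chains, 6 of which held 50 counts or more in every tumor, and in 2 of these 6 the share of the leading transcript did not overlap between groups. Across 2719 genes with more than 1 transcript and that depth, 11.4% did not overlap. The 2 were Col6a2 and Col6a3, singled out after their values were seen. For Col6a2, the transcript with a coding sequence of 2799 bases in place of 3102 took 17.7, 7.27 and 10.5% across controls versus 24.3, 24.1 and 23.9% with SS. The 3 SS tumors were nearly equal and all controls were lower. For Col6a3, the transcript with 40 coding exons in place of 43 took 9.91, 10.9 and 9.33% across controls versus 15.7, 14.5 and 14.8% with SS. Again the controls lay together below the SS tumors, and for both genes the exact two-sided permutation p was 0.1, the smallest possible. The deposited counts per transcript are not whole numbers, so these shares are estimates.

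Other shares were less ordered. The non-coding transcript of Col4a1 took 44.3, 38.7 and 35.5% across controls versus 35.5, 44.1 and 46.9% with SS, and the longer Col4a5 transcript took 37.9, 66.7 and 63.5% across controls versus 30.9, 34.1 and 55.5% with SS. Both groups overlapped in each case.

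**Figure D5:**
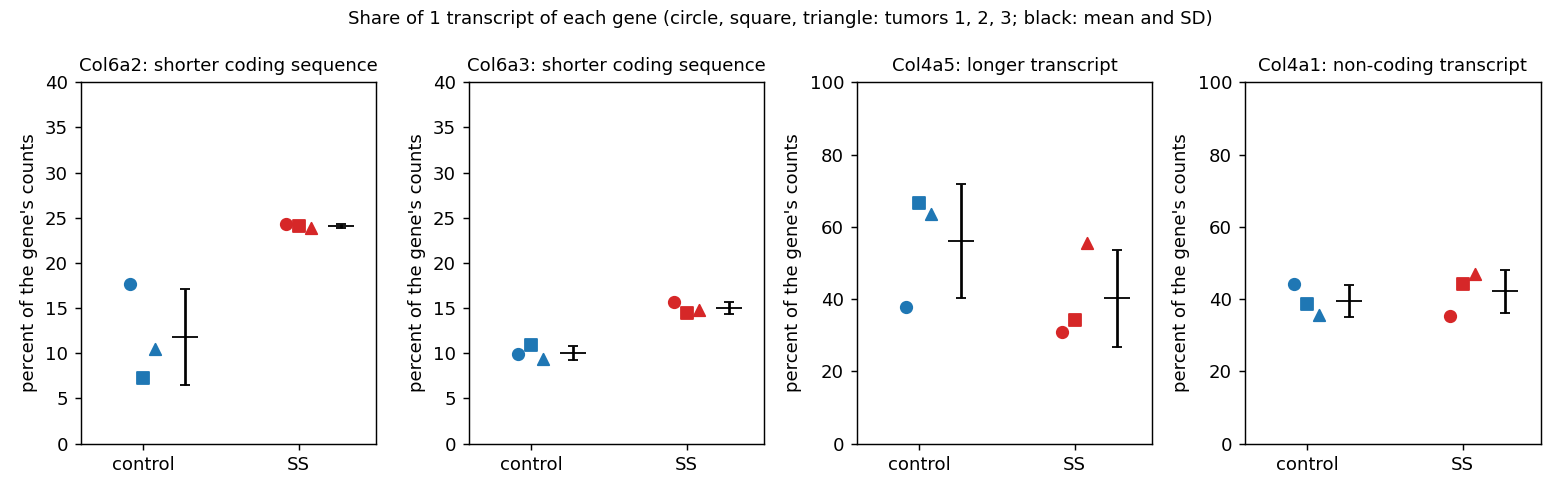
Share of the gene's estimated counts given to 1 transcript in each tumor, in percent, for Col6a2, Col6a3, Col4a5 and Col4a1, in blue for control and red for SS, with group means and SD in black. The SS points of Col6a2 lie at 23.9 to 24.3% above controls at 7.27 to 17.7%, and the last 2 panels overlap.

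Genes that make, fold, process, link and bind collagen were taken from lists of 75, of which 69 were in the table and 65 were tested. At an unadjusted p under 0.05 by edgeR, 1 was higher and 2 were lower in SS, a share not above the 3.19% and 3.16% of all genes. After adjustment none passed, as was so for all 10902 genes tested. Negative log2 fold changes were found for 52 of 65, or 80.0%, where all genes had 50.2%, and their median was -0.13. The groups did not overlap for 8 of them (12.3%), near the 12.9% of all genes. Without SS tumor 1, 43 of 66 were negative.

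A list of the enzymes that hydroxylate and glycosylate the chains in the endoplasmic reticulum also held proteins without those activities, Crtap, P3h4 and Ppib. Of its 14 tested genes, 13 had a negative log2 fold change. P3h3, a member of the prolyl 3-hydroxylase family, was at 19.98, 27.2 and 24.4 CPM across controls versus 18.7, 16.6 and 15.5 CPM with SS. No SS tumor reached the lowest control (log2 fold change -0.50, SE 0.17, unadjusted p = 0.0229). P3h4, a non-catalytic member of that family, was at 11.9, 11.8 and 10.1 CPM across controls versus 5.73, 9.05 and 7.77 CPM with SS, likewise without overlap (log2 fold change -0.59, SE 0.23, unadjusted p = 0.036). In fits that left out 1 tumor both kept their sign, with log2 fold changes from -0.61 to -0.39 for P3h3 and from -0.74 to -0.43 for P3h4, and each had an unadjusted p over 0.05 in 4 of the 6. P4ha1, a catalytic subunit of the prolyl 4-hydroxylase that stabilizes the helix, was at 99.4, 113 and 172 CPM across controls versus 89.2, 99.3 and 97.9 CPM with SS. Its control tumor 3 stood well above the rest, and the SS tumors lay just under the lowest control (log2 fold change -0.43, SE 0.20, unadjusted p = 0.0679). Plod2, a lysyl hydroxylase of crosslink sites, ranged from 8.21 to 11.7 CPM in control and 2.68 to 10.97 CPM in SS.

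Serpinh1, which encodes the collagen chaperone HSP47, was at 575, 808 and 694 CPM across controls versus 492, 575 and 593 CPM with SS. SS tumors were the lower on average, with overlap at control tumor 1 (log2 fold change -0.32, SE 0.14, unadjusted p = 0.0549). Of the crosslinking enzymes, Loxl3, a lysyl oxidase family member, was at 111, 116 and 83.8 CPM across controls versus 155, 139.9 and 116 CPM with SS and without overlap (log2 fold change 0.40, SE 0.16, unadjusted p = 0.0372). Its log2 fold change was 0.30, 0.39 and 0.27 when SS tumor 1, SS tumor 2 or control tumor 3 was left out, with an edgeR unadjusted p of 0.135, 0.0844 and 0.104, and 0.41 with quantile normalization and limma, with an unadjusted p of 0.0952. Loxl1, of the same family, had no overlap in the other direction, at 91.4, 105 and 77.5 CPM across controls versus 37.8, 76.0 and 76.9 CPM with SS (log2 fold change -0.53, SE 0.27, unadjusted p = 0.0856). Lox and Loxl2 had log2 fold changes of -0.18 and -0.23, neither under an unadjusted p of 0.05. Among receptors, the kinases Ddr1 and Ddr2 had log2 fold changes of 0.18 and -0.036 and the integrin chains Itga1 and Itga2 0.0038 and -0.072. Of the 13 tested fibril-associated proteoglycans and glycoproteins, 11 had a negative log2 fold change and none an unadjusted p under 0.05. Among these, Thbs1 was at -0.59, Bgn at -0.36 and Tnc, without overlap between groups, at -0.12, whereas Dcn, the fibril proteoglycan decorin, was at 0.11 and Lum was too low to test.

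Cell type markers were read beside the chains, since several cell types make collagen. Sox9, a regulator of cartilage collagens and a progenitor gene of the mammary gland, was at 105, 87.4 and 203 CPM across controls versus 56.6, 61.9 and 85.7 CPM with SS, with all SS tumors below all controls (log2 fold change -0.95, SE 0.32, unadjusted p = 0.0185), while Acan, Matn3 and Hapln1 were not in the table and Comp (0 to 0.595 CPM) and Chad (0.237 to 0.652 CPM), which overlapped between groups, were too low to test. The 10 fibroblast markers were all in the table, 7 were tested and 6 of these were negative, with none under an unadjusted p of 0.05. Krt18, an epithelial keratin, was below every control in every SS tumor (log2 fold change -0.50, SE 0.12, unadjusted p = 0.00387), while the other 5 epithelial markers overlapped, with log2 fold changes from -0.30 for Krt5 to 2.201 for Epcam, and the sums of the 6 ran from 508 to 702 CPM in control and 493 to 611 CPM in SS. Sums of the 8 pericyte and smooth muscle markers lay at 771 to 1003 CPM, those of the 6 leukocyte markers at 444 to 555 CPM and those of the 8 adipocyte markers at 17.8 to 219.6 CPM. The part of any of these cell types in the collagen values was not tested.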

How the data were processed

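The authors sequenced polyA RNA from each tumor as stranded read pairs of 75 bases and deposited estimated counts per RefSeq transcript (expected counts, not normalized), where every listed transcript had at least 10 counts over the 6 tumors. Their processing notes name CASAVA 1.8.1, Bowtie2 2.2.5, STAR 2.5.3a and mm10. The counting tool is not given in the sources used here. Transcripts were summed by gene symbol (20648 transcripts, 13730 genes), 21 symbols changed to dates were restored, and sums were rounded. The quasi-likelihood test of edgeR 4.0.16 (R 4.3.3), with TMM scaling (factors 0.98 to 1.03), filterByExpr and p-values adjusted after Benjamini and Hochberg across 10902 genes, compared 3 control with 3 SS tumors. The common coefficient of variation was 0.323. The test was checked on simulated data. Alternatives used DESeq2 1.42.0, limma 3.58.1 after quantile normalization (prior count 2), RLE scaling, other filters (none, or at least 1 CPM in at least 3 tumors), the largest transcript only, a replicate block, and leaving out each tumor. Exact two-sided permutation tests compared CPM means. Named were the chains of types I, III, V, XV and XVIII, the main chains of types IV and VI, chains at an unadjusted p under 0.05, the 3 largest fold changes each way, the extremes of level, and companion genes at that threshold or of main roles. The other chains are named for completeness of the family. A table of proteins was planned for the triplet repeats and coding sequences were read in its place. Members, lists and ratios were chosen with earlier results of these data known. The depth of 8468948 to 24441553 counts sets the precision, and floors cover counting error only. One marker result is not reported here.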

Additional observations from a re-analysis of the deposited data

How the results depend on the processing

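No collagen chain reached an adjusted p under 0.05 under any of the 13 alternatives. The count of chains higher in SS at an unadjusted p under 0.05 stayed at 1 under every alternative that kept all tumors, and ran from 0 to 2 when a tumor was left out (0 without control tumor 2). With quantile normalization and limma, the 1 chain lower was Col6a6, at an unadjusted p of 0.0489, in place of Col8a1, at 0.107. The count of chains lower was 2 of 32 with DESeq2 (Col5a2 and Col6a2), 2 of 28 with the largest transcript only (Col6a2 and Col8a1) and 0 to 4 of 30 with a tumor left out. Of all genes, 6.1%, 5.74% and 4.58 to 7.81% were called in either direction in these fits. With the replicate number as a block the count of chains lower was 6 of 30, where 5.9% of all genes were called in either direction. However, the numbers are not known to pair the tumors. Same-numbered tumors correlated at 0.0367 to 0.0972 in their deviations, and not every tumor correlated best with its own number. The median of the chains ran from -0.14 to 0.15 with a tumor left out, and was positive without SS tumor 1 (0.15) and without control tumor 2 (0.047). With all tumors kept it was -0.021 after quantile normalization and -0.019 with the replicate block. The summed CPM differed by -4178 to 808 with a tumor left out. Companion genes lower in SS numbered 5 of 69 with DESeq2, 5 of 65 with the largest transcript only and 4 of 65 with the replicate block. With a tumor left out they numbered 0 to 10, of 65 to 67 tested. Companion genes higher in SS numbered 0 with quantile normalization and limma, where 5.95% of all genes were called, and 0 to 3 with a tumor left out. For the other fits the shares of all genes are those given above. Of the 30 tested chains, 13 changed sign with a tumor left out, among them Col1a1 (-0.33 to 0.14), Col3a1 (-0.65 to 0.18), Col4a1 (-0.059 to 0.28), Col4a2 (-0.12 to 0.18) and Col6a3 (-0.40 to 0.10), and the others were Col4a5, Col4a6, Col6a5, Col8a2, Col11a1, Col16a1, Col17a1 and Col27a1. Other chains kept their sign but moved, such as Col1a2 (-0.51 to -0.11), Col5a3 (0.14 to 0.48), Col6a1 (-0.33 to -0.033) and Col24a1 (0.47 to 1.43). With the largest transcript only, Col4a1 was at -0.018 and Col4a2 at 0.0002, and the SS minus control difference in Col6a1 to Col6a2 went from 0.0597 to 0.182. The change in that ratio comes from the Col6a2 transcript left out, since Col6a1 has 1 transcript. The cause of the other changes was not tested. Alternatives for ratios, single companion genes, chains not named by rule, transcript shares and class medians were chosen after seeing the data. Standard errors of the chains reached 1.15 on the log2 scale, for Col17a1, at this depth.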
